A study of Mus musculus with 4 samples.

Results

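The Fos and Jun genes encode the subunits of activator protein 1 (AP-1), a leucine-zipper transcription factor, and are described here across 4 arrays of mouse prefrontal cortex. Members were the probes whose gene name in the scanner files was Fos, Fosb, Fosl1, Fosl2, Jun, Junb or Jund, control spots excluded. All 7 genes, of 27248 gene names, were on the array, with 12 of its 56605 probes. On all 4 arrays 11 of the 12 were well above background, so all 7 members were among the 20655 genes measured, each through its brightest probe. The set was selected on values of these same arrays, where immediate early genes with Fos and Fosb among them had lower signals on sucrose. The changes below are therefore a description and carry no test.

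The mice were 3-month-old B6J animals, either wild-type or heterozygous for Glo1, which encodes the methylglyoxal-detoxifying enzyme glyoxalase 1. Feeding on starch or on sucrose began at weaning on postnatal day 21 and lasted about 70 days, and wild-type mice on starch were the study's control. Each of the 4 groups (wild-type starch, wild-type sucrose, Glo1 heterozygous starch and Glo1 heterozygous sucrose) was measured as 1 pool of RNA from 3 mice on 1 one-colour Agilent array. The study asked how diet and genotype together shape cortical expression. With 1 array per group there is no error between replicates, no difference has a replicate check, and no p-value is given. Differences between mice, between pools and between hybridisations cannot be told apart from diet or genotype, nor can fewer cells that express a gene from less RNA per cell.

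AP-1 binds DNA as a dimer. Jun proteins pair with each other or with Fos proteins, whereas Fos proteins need a Jun partner, and all share a basic region that contacts DNA and a leucine zipper that joins the pair. In cortical neurons Fos, Fosb and Junb are immediate early genes: synaptic activity and calcium entry start their transcription within minutes through factors already present, chiefly CREB and SRF, and Fos is a common marker of recently active neurons. Jund is transcribed more steadily.

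The 250 bases upstream of the annotated start are shown for Fos, Fosb and Junb, for Fosl2, whose values followed those of Fosb, and for Jun, which was higher on sucrose. The sequences are from RefSeq on build GRCm38.p6, which matched 6 of the 7 members (not Fosl1). They read 5′ to 3′ on the strand of the gene, and capitals mark the motif matches named below.
Fos, chr12:85473640-85473889, plus strand: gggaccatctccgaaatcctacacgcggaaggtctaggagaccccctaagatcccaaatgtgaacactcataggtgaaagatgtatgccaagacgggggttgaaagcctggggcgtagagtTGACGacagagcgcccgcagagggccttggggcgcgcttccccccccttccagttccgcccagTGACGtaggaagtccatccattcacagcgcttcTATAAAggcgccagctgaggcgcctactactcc
Fosb, chr7:19310046-19310295, minus strand: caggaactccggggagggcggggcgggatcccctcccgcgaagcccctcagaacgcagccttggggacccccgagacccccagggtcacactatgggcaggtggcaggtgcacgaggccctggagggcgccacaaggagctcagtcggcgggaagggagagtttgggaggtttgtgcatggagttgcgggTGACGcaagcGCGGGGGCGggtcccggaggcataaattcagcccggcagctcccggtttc
Fosl2, chr5:32136222-32136471, plus strand: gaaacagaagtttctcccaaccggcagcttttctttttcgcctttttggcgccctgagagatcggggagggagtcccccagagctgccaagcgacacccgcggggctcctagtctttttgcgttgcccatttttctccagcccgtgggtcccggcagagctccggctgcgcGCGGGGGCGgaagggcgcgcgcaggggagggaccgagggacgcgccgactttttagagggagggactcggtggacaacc
Jun, chr4:95052223-95052472, minus strand: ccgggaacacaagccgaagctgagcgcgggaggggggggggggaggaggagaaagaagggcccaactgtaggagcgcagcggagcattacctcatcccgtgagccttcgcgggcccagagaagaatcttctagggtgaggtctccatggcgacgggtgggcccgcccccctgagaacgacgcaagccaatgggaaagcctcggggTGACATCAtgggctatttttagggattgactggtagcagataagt
Junb, chr8:84978749-84978998, minus strand: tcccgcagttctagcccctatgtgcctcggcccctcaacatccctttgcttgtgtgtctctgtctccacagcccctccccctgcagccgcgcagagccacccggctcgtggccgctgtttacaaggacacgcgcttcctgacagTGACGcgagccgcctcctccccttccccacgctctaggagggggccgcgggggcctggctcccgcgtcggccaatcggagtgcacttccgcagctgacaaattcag

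Motifs were searched on both strands of these windows and of all 32851 promoters of the table. The cAMP response element TGACGTCA, the AP-1 site TGANTCA and the CArG box bound by SRF had no match in the 6 windows. They were present in 1.55%, 6.75% and 1.47% of all promoters. Sequence further upstream was not searched, so the search cannot show whether Fos or another member has such a site there. A TATA box, TATAAA, was found in Fos at positions -33 to -28 and in 12.4% of all promoters. The EGR site GCGNGGGCG was found in Fosb at positions -50 to -42 and in Fosl2 at -79 to -71, against 4.70% of all promoters. A pair of further motifs was chosen after the sequences had been seen. The CRE core TGACG, which is also part of the full element, lay at -129 to -125 and at -66 to -62 in Fos, at -60 to -56 in Fosb and at -106 to -102 in Junb, and occurred in 17.8% of all promoters. The Jun-type element TGACATCA lay at -45 to -38 in Jun and in 2.93% of all promoters. Jund had no match to any of these motifs within its window.

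For the probes, the first 30 of 60 bases are given for the genes whose values are described most closely, 5′ to 3′ and with no part in capitals. Both probes of Fosb and of Fosl2 are given because their values are compared.
Fos A_55_P2910184: cctgaggtctttcgacatgtggaaagtgaa
Fosb A_55_P2113051: actgccgaccacaattcattgactccatag
Fosb A_55_P2744102: ccttcttgctctgtaaactctttagacaaa
Fosl2 A_55_P2803815: gctatggaggaaagaacatattaaaaactt
Fosl2 A_51_P507242: gattgctgagctgcagaaggagaaggagaa
Jun A_55_P2158990: atgctaacgcagcagttgcaaacgttttga
Junb A_51_P159194: ttcgtgtctaaagtctattttaagatgtgt

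Signals below are multiples of the array's 75th percentile, and changes are log2 differences between these. That percentile lay between 1780 and 1929 intensity units, 77.6% to 80.2% of non-control spots were well above background, and no spot was saturated. The only error these files allow is the spread between repeated spots of a probe within an array. The SD this spread gives for a difference of single spots was 0.07 in the brightest quartile of probes (291 probes printed 10 times). It was 0.12 in the next quartile, from 5 probes, and 0.43 in the dimmest, from 13 control probes. It does not cover mice or pools. Glo1 was lower on the heterozygous arrays, at 67.7% of the wild-type signal on starch and 55.0% on sucrose, the direction the labels give.

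Signals on sucrose were below those on starch in both genotypes for 6 of the 7 genes and above them in both for 1, Jun, where 30.2% of all 20655 genes were lower and 30.1% higher in both. The number lower was 5 under cyclic loess, quantile normalisation, normexp, the mean over probes and a filter at the median signal, because Jund changed sign in wild-type mice or Fosl1 dropped out. In wild-type mice 0 of 7 passed 2-fold, against 1.48% of all genes. In heterozygous mice Fos and Fosb passed, both lower, against 1.77% of all genes in either direction and 0.479% lower. At 1.5-fold, 3 members passed in wild-type mice (5.93% of all genes) and 4 in heterozygous mice (5.57%). Fos, Fosb and Fosl2 were lower by 1.5-fold or more in both genotypes, as were 0.804% of all genes. With the mean over probes Fosl2, at -0.43 and -0.57, fell short of 1.5-fold in both, which left 2 genes. Under median scaling Jun fell short of it in heterozygous mice, at 0.57, which left 3 there. The median change of the 7 was -0.45 in wild-type and -0.53 in heterozygous mice, where the median of all genes was 0.00 in each. The wild-type median is the value of Fosl1, a dim probe, and was -0.29 under normexp. The diet comparisons of the 2 genotypes share no array.

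**Figure D1:**
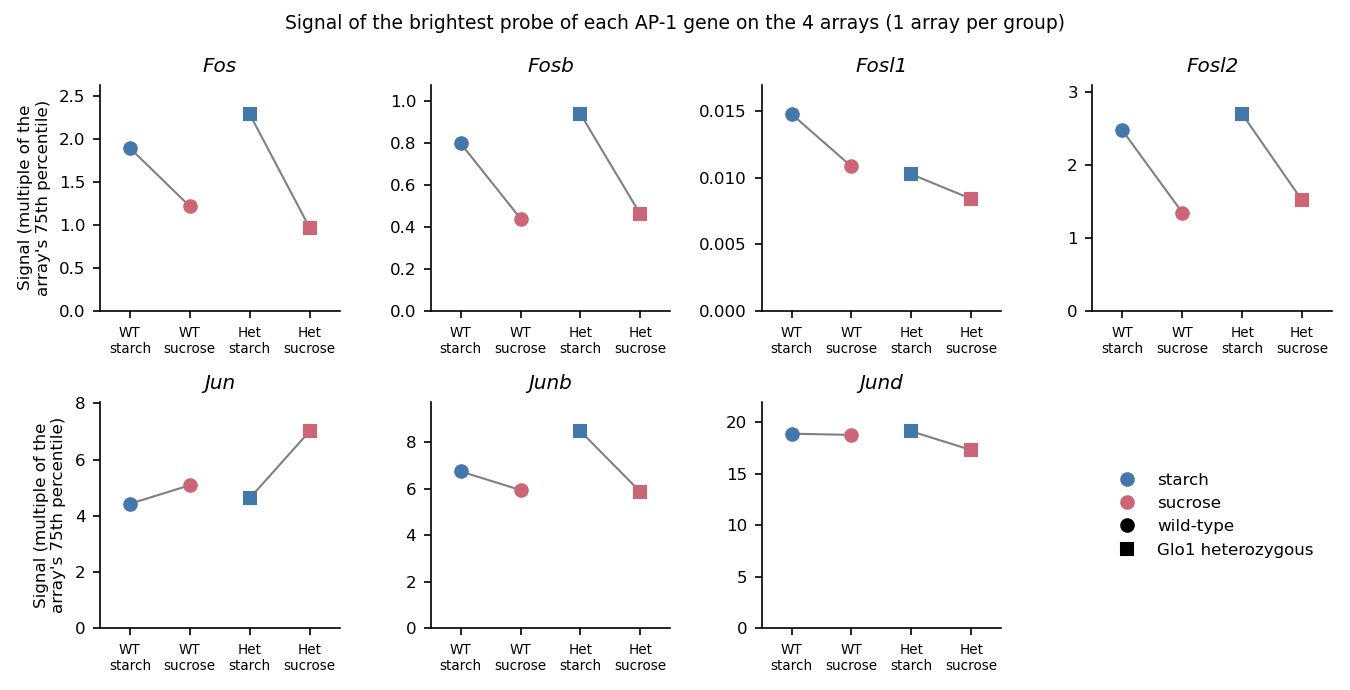
Signal of the brightest probe of each gene (y axis, multiple of the array's 75th percentile, linear from 0) on the 4 arrays (x axis), circles for wild-type and squares for Glo1 heterozygous mice, blue for starch and red for sucrose, with 1 array per group and no error bar. Fos ran from 2.28 on the heterozygous starch array to 0.968 on the heterozygous sucrose array, and Jun was highest, at 7.01, where Fos was lowest.

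Fos, the founding member of the family, had 1 probe on chromosome 12 at 86818118 to 86818177 (build mm9, plus strand), which begins at base 1991 of its transcript. Its signal in wild-type mice was 1.89 on starch and 1.21 on sucrose, and in heterozygous mice 2.28 on starch and 0.968 on sucrose. Both starch arrays thus lay above both sucrose arrays. How many of all genes have both arrays of a diet above both of the other was not counted. The change on sucrose was -0.64 in wild-type mice, or 64.3% of the starch signal, and -1.24 in heterozygous mice, or 42.4%. From the lowest, these changes ranked 608 and 58 of 20655 genes. The diet change was more negative by 0.60 in heterozygous mice (interaction -0.60), which combines a genotype change of 0.27 on starch with one of -0.33 on sucrose. Every gap between neighbouring arrays in the order of signal exceeded the spot SD of 0.07. Of 8 alternative ways of processing, 4 could move the value of this single probe, and under these the diet change lay between -0.65 and -0.60 in wild-type mice and between -1.27 and -1.21 in heterozygous mice.

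Fosb encodes an activity-induced Fos protein whose truncated splice form, known as ΔFosB, builds up in neurons under repeated stimulation. Its brighter probe (chromosome 7, 19888168 to 19888227, minus strand, from base 3593 of the transcript) gave 0.797 on wild-type starch, 0.439 on wild-type sucrose, 0.937 on heterozygous starch and 0.460 on heterozygous sucrose. Both sucrose arrays were below both starch arrays, and the sucrose arrays differed by 0.07, within the spot SD of 0.12. On sucrose the change was -0.86 in wild-type mice and -1.03 in heterozygous mice, ranks 308 and 94 from the lowest. The second probe, at 19890146 to 19890205 and from base 1615 of the same transcript, was dim. It gave 0.0113, 0.00769, 0.0189 and 0.00763 in the same order of arrays. Its diet changes, -0.56 and -1.31, had the sign of the brighter probe's, with a spot SD of 0.43. Whether either probe separates full-length Fosb from the splice form was not tested. In heterozygous mice the change of the brighter probe was -0.99 under normexp, just short of 2-fold.

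Fosl2 encodes Fra-2, a Fos-related subunit without the strong activation domain of Fos. The brighter probe (chromosome 5, 32460076 to 32460135, plus strand, from base 5726) gave 2.47, 1.35, 2.70 and 1.52 on wild-type starch, wild-type sucrose, heterozygous starch and heterozygous sucrose. Both starch arrays again lay above both sucrose arrays, an order not counted over all genes. The diet change was -0.87 in wild-type mice and -0.83 in heterozygous mice, an interaction of 0.04 that turned negative (-0.14) under the mean over probes. The second probe lay upstream in the transcript, from base 738 (32455088 to 32455147), and gave 0.0206, 0.0208, 0.0316 and 0.0254. Its diet changes were 0.01 and -0.32, smaller than those of the brighter probe and within the spot SD of 0.43. The mean over both probes gave -0.43 and -0.57.

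Fosl1, which encodes Fra-1, the Fos-related subunit best known from dividing and injured cells, was dim. Its probe (chromosome 19, 5455496 to 5455555, plus strand) gave 0.0148, 0.0108, 0.0103 and 0.00841 in the same order. Highest was the wild-type starch array. The diet changes of -0.45 and -0.29 were near or below the spot SD of 0.43, and the genotype changes were -0.53 on starch and -0.37 on sucrose. Normexp brought these 4 changes to -0.29, -0.12, -0.21 and -0.04.

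Jun, the partner that Fos proteins bind and that also pairs with itself, had 1 probe on chromosome 4 at 94716928 to 94716987 (minus strand, from base 1926). Its signal was 4.43 on wild-type starch, 5.09 on wild-type sucrose, 4.62 on heterozygous starch and 7.01 on heterozygous sucrose. The sucrose arrays lay above the starch arrays, with the heterozygous sucrose array highest. On sucrose Jun was higher by 0.20 in wild-type mice (114.9% of the starch signal) and by 0.60 in heterozygous mice (151.6%). From the highest, these changes ranked 3660 and 703 of 20655 genes. The interaction was 0.40, opposite in sign to that of Fos. Under the 4 alternatives that could move it, the heterozygous change lay between 0.57 and 0.62.

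Junb encodes an activity-induced Jun protein that activates many sites more weakly than Jun. The brightest probe (chromosome 8, 87500843 to 87500902, minus strand, from base 1745) gave 6.75, 5.95, 8.48 and 5.87 on wild-type starch, wild-type sucrose, heterozygous starch and heterozygous sucrose. The heterozygous starch array stood highest, and the sucrose arrays differed by 0.02. The diet change was -0.18 in wild-type mice and -0.53 in heterozygous mice, rank 515 from the lowest in the latter. A dim second probe from base 707 (87501881 to 87501940) gave 0.0447, 0.0334, 0.0366 and 0.0303, with diet changes of -0.42 and -0.28. On starch the genotype change was 0.33 for the brightest probe and -0.28 for the second, so these probes disagreed in sign. A further probe, designed to a cDNA clone and placed at 87496635 to 87496694, was not well above background on any array.

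Jund, the steadily expressed Jun gene, had bright probes from bases 2797 and 2663 of its transcripts (chromosome 8, 73224436 to 73224495 and 73224302 to 73224361, plus strand). The brighter gave 18.9, 18.8, 19.1 and 17.3 in the same order, lowest on heterozygous sucrose, and the other 12.3, 13.2, 14.8 and 13.6, lowest on wild-type starch. The diet change of the brighter probe was -0.01 in wild-type mice, where the sign turned positive in 4 of 8 alternatives, and -0.14 in heterozygous mice. The second probe gave 0.11 and -0.12. Jund differed least between diets in wild-type mice among the 7 genes.

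**Figure D2:**
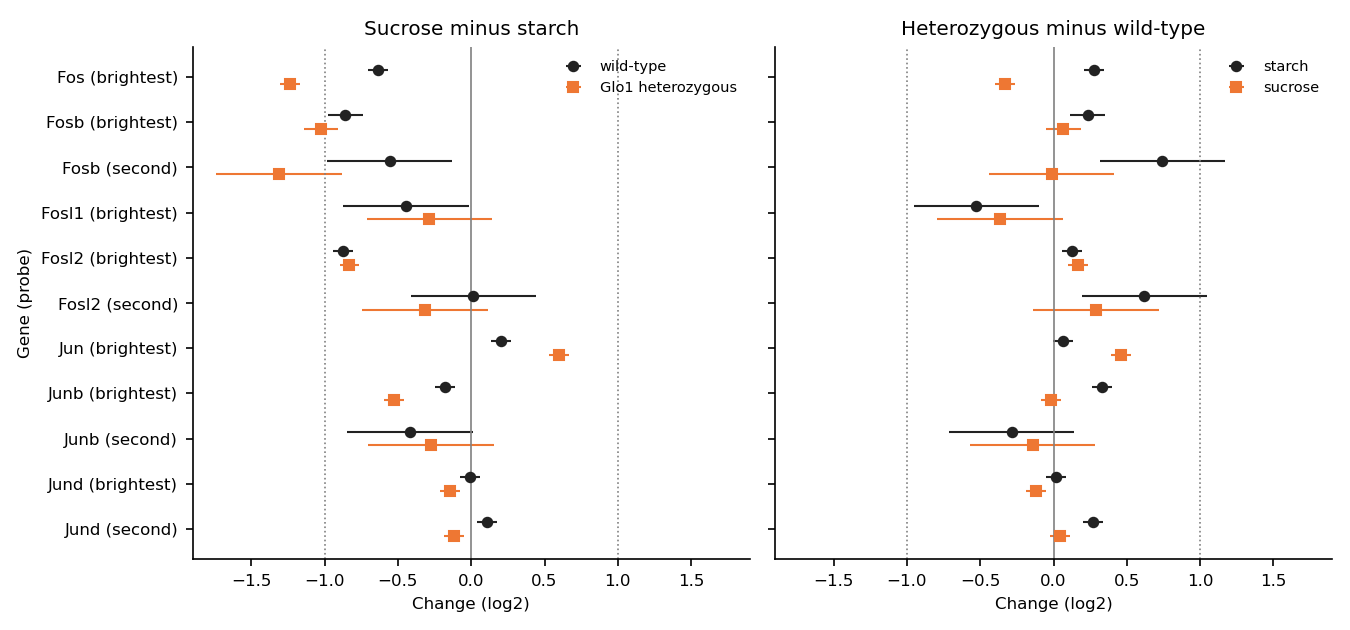
Change of each of the 11 measured probes (rows) on the log2 scale, sucrose minus starch at left (black circles wild-type, orange squares heterozygous) and heterozygous minus wild-type at right (black circles starch, orange squares sucrose). Bars show 1 SD of a difference of single spots from repeated spots, which leaves out differences between mice, and dotted lines mark 2-fold. Fos at -1.24 and Fosb at -1.03 and, for the dim probe, -1.31 lie beyond 2-fold for diet in heterozygous mice.

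Between genotypes no member passed 2-fold on either diet. On starch 0 of 7 passed, against 0.813% of all genes, with 6 higher in heterozygous mice (46.0% of all genes) and a median of 0.12, where all genes had -0.02. On sucrose 0 of 7 passed, against 1.71% of all genes, with 3 higher and 4 lower (45.1% and 54.9% of all genes) and a median of -0.02, where all genes also had -0.02. Normexp, quantile normalisation, cyclic loess and the filter at the median signal turned the sign of this sucrose median. Among the brightest probes the largest genotype changes were -0.53 for Fosl1 on starch and 0.46 for Jun on sucrose. Junb was higher by 0.33 in heterozygous mice on starch and differed by -0.02 on sucrose, a value whose sign turned in 3 of 8 alternatives. For Fosb the values were 0.23 and 0.07, and for Fosl2 0.12 and 0.17. With the mean over probes the starch values became 0.02 for Junb, 0.49 for Fosb and 0.37 for Fosl2.

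Heterozygous sucrose against wild-type starch sets the group with both factors against the control. Here 0 of 7 members passed 2-fold, against 2% of all genes, and 5 passed 1.5-fold, against 7.32%. Fos was at -0.97 (51.2% of the control), Fosl1 at -0.81, Fosb at -0.79, Fosl2 at -0.71 and Jun at 0.66, with Junb at -0.20. Fos passed 2-fold under median scaling, at -1.01. Fosl1 was at -0.33 under normexp and Fosl2 at -0.20 with the mean over probes, and neither then passed 1.5-fold. For Jund the change was -0.13, which turned positive in 2 of 8 alternatives. This comparison shares an array with each of the others.

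**Figure D3:**
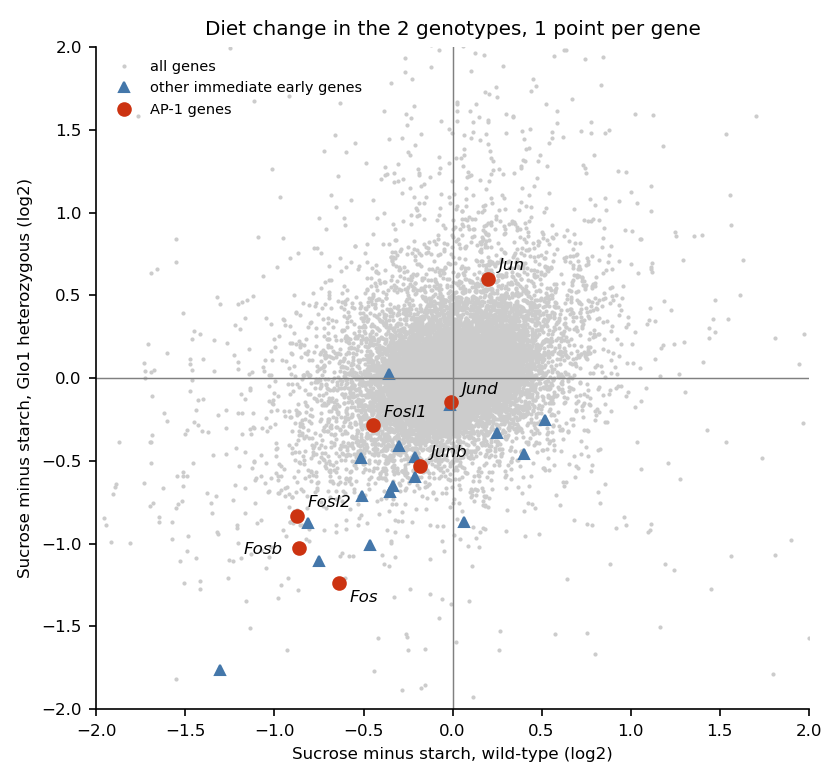
Change on sucrose in wild-type (x axis) and in Glo1 heterozygous mice (y axis), log2, 1 point per gene: grey for all genes, blue triangles for the 17 other immediate early genes and red circles for the 7 AP-1 genes. Both axes end at 2 in size, which leaves 121 genes outside. Fos, Fosb and Fosl2 lie at lower left and Jun at upper right.

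The other immediate early genes give the context in which Fos and Fosb are usually read. Lower signals of immediate early genes on sucrose on these arrays were part of how the set was selected. Their diet counts are therefore a description and no separate support. All 17 of the list were measured, and 12 were lower on sucrose in both genotypes and 0 higher in both, against 30.2% and 30.1% of all genes. Their median diet change was -0.34 in wild-type mice (13 lower, 1 past 2-fold) and -0.60 in heterozygous mice (16 lower, 3 past 2-fold and lower). Of all genes 50.1% and 49.9% were lower in these comparisons, 1.48% and 1.77% passed 2-fold in either direction, and 0.479% did so downward in heterozygous mice. Egr2, a zinc-finger factor, was lower by the most, with signals of 1.72, 0.695, 2.15 and 0.633 in the order wild-type starch, wild-type sucrose, heterozygous starch, heterozygous sucrose and diet changes of -1.30 and -1.76. Egr1 changes were -0.75 and -1.11, those of Arc, which encodes a synaptic protein, -0.46 and -1.01. Npas4, a neuron-specific activity factor, had -0.81 and -0.87, and the nuclear receptor gene Nr4a1 had -0.51 and -0.71. In wild-type mice 4 of the 17 were higher on sucrose: Klf2 at 0.52, Dusp1 at 0.40, Nr4a2 at 0.25 and Ctgf at 0.06. In heterozygous mice each of these was lower. On starch 14 of the 17 were higher in heterozygous mice, against 46.0% of all genes, and on sucrose 15 of 17 were lower, against 54.9%. Striatal markers ran the same way, with 6 of 7 higher in heterozygous mice on starch (median 0.81) and 7 of 7 lower on sucrose (median -1.31), and their part in these counts was not tested.

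Upstream of AP-1, a list of 20 genes held MAP kinases, their activators and the factors that act on Fos and Jun genes. Its median diet change was 0.06 in wild-type mice (11 higher, 9 lower) and -0.01 in heterozygous mice (8 higher, 12 lower). In any pairwise comparison 0 of 20 passed 2-fold, where 0.813% to 2% of all genes passed in each single comparison. In both genotypes 6 of the 20 were lower on sucrose and 5 higher, against 30.2% and 30.1% of all genes. Srf, which binds the CArG box, had signals of 3.33, 2.49, 2.68 and 2.67 in the same order of arrays, highest on wild-type starch. Creb1 had 1.83, 1.73, 1.95 and 1.43, lowest on heterozygous sucrose.

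Among related leucine-zipper factors that pair or compete with AP-1 subunits, 15 of 15 were measured and 8 were lower and 4 higher on sucrose in both genotypes, against 30.2% and 30.1% of all genes. Their medians were -0.08 and -0.12. In any pairwise comparison 0 of the 15 passed 2-fold, where 0.813% to 2% of all genes passed in each single comparison. Atf3, a stress-induced partner of Jun proteins, gave 0.0654, 0.0354, 0.0735 and 0.0522, with diet changes of -0.88 and -0.49.

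Of 17 genes listed as reported AP-1 targets, 15 were measured. Their median was 0.04 in wild-type mice (8 higher, 7 lower) and -0.10 in heterozygous mice (4 higher, 11 lower), with 6 of the 15 lower in both genotypes and 3 higher in both, against the same 30.2% and 30.1%. The 1 gene past 2-fold in any pairwise comparison was Nts, the neurotensin precursor, at 0.210, 0.367, 0.511 and 0.161. In each single comparison 0.813% to 2% of all genes passed, and the share that passed in any of them was not counted. Nts was highest on the wild-type sucrose and heterozygous starch arrays, the arrays on which striatal markers were also highest, and its diet changes were 0.80 and -1.67.

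The nearest profiles to Fos and Fosb were sought among 20648 other genes, as the smallest distance between mean-centred log2 signals over the 4 arrays. The 5 nearest to Fos were Cped1, Car3 (a carbonic anhydrase), Egr1, Rgs18 (a regulator of G-protein signalling) and 1700016P03Rik, at distances of 0.13 to 0.21. Of these, Cped1 and Rgs18 were in the dimmest quartile of probes. To Fosb the nearest were Plekhg4, the interferon-induced genes Usp18, Oas1a and Mx1, and the small heat shock protein gene Hspb1, at 0.08 to 0.15. Of these, Mx1 was in the dimmest quartile. Hspb1 signals were 7.41, 3.93, 7.58 and 4.15, so that the starch arrays stood above the sucrose arrays as for Fosb. Within the family, Fosl2 was nearest to Fosb (0.14), Fosb was nearest to Fos (0.28), and Jun was farthest from each of Fos (1.46) and Fosb (1.38). With 4 arrays, many profiles come close by number alone.

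**Figure D4:**
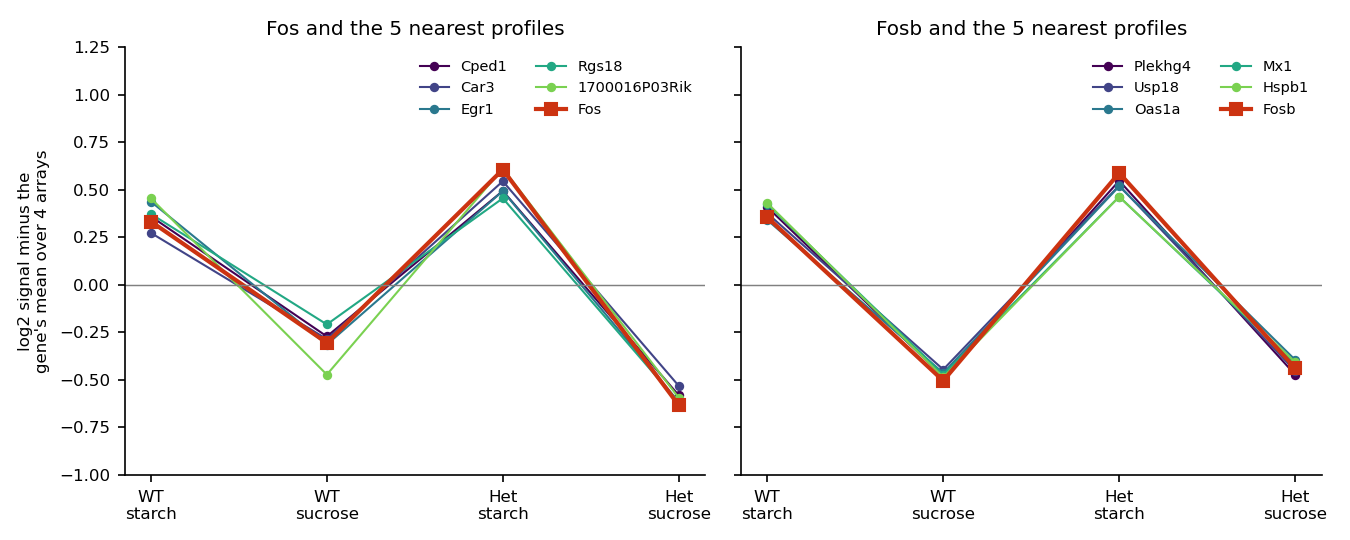
Mean-centred log2 signal (y axis) of Fos (left) and Fosb (right), in red with squares, and of the 5 genes nearest to each, over the 4 arrays (x axis, 1 array per group). In both panels the starch arrays lie above 0 and the sucrose arrays below it, and the Fos profile reaches its lowest point on heterozygous sucrose.

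Markers of cell types also differed between these arrays. Summed signals of the 8 cortical excitatory neuron markers were 69.8, 95.1, 86.3 and 91.9 on wild-type starch, wild-type sucrose, heterozygous starch and heterozygous sucrose, and those of 3 general neuron markers 148.5, 148.7, 142.9 and 139.1, so markers of cortical neurons were detected on every array. The 4 blood markers summed to 128.3, 62.4, 106.7 and 70.0 and were lower on sucrose in both genotypes (4 of 4 in each), the direction of Fos, Fosb and Fosl2. The 7 striatal markers measured summed to 11.7, 22.9, 19.1 and 11.1, and the 7 choroid plexus markers to 0.725, 1.02, 0.949 and 12.5, highest on the array where Jun was highest and Fos lowest. Astrocyte sums were 30.8, 27.6, 30.3 and 28.4, oligodendrocyte sums 74.4, 66.3, 75.01 and 68.9, and endothelial sums 11.0, 9.70, 11.0 and 9.68. In these 3 sums, as in blood, both starch arrays stood above both sucrose arrays, as for Fos, Fosb and Fosl2. This order was not counted over all genes. Single markers were less uniform: in wild-type and heterozygous mice 4 and 3 of 4 astrocyte markers, 4 and 3 of 4 oligodendrocyte markers and 2 and 3 of 4 endothelial markers were lower on sucrose. Interneuron sums spanned 62.7 to 71.9 and microglia sums 27.2 to 29.4. The part of any of these in the AP-1 values was not tested.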

How the data were processed

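Per the labels, each sample was 1 pool of total RNA from 3 mice, of which 200 ng was labelled with Cy3. The deposited intensity values came from Agilent Feature Extraction 11.5.1.1, per the submitters' processing notes. Per the file headers, background was subtracted with spatial and multiplicative detrending within the array, with no step between arrays. The authors' series matrix held a ratio, which on comparison was the processed intensity divided by 1 value per array, within 0.0135% of the 75th percentile used here.

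From these, log2 of processed signal over the array's 75th percentile of non-control spots was computed, without outlier spots (46 to 82 per array). Genes were taken from 42094 probes well above background on all 4 arrays, as the brightest probe. Each comparison is a difference of single arrays, counted at 2-fold. Alternatives used limma 3.58.1 in R 4.3.3. The calculation was run on simulated data whose planted changes all exceeded the threshold. The simulated noise was the same for bright and dim probes and left out mice and pools. This checks the arithmetic and gives no support to the values.

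Members and lists were chosen with earlier results of these data known. Genes named beyond the members were Egr1, Nr4a1, Npas4, Arc, Atf3, Srf, Creb1, list genes past 2-fold in a pairwise comparison, and the 5 nearest profiles to Fos and Fosb. Penk, Ctgf, Dusp1, Klf2 and Nr4a2 were also named, and Hspb1 is described further, by choices made after their values were seen.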

Additional observations from a re-analysis of the deposited data

Results flagged for a closer look

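Several genotype differences had opposite signs on the 2 diets, each larger in size than 1 SD of a difference of single spots. None of these differences was tested, since each rests on 4 single arrays. Among the members and the genes named by rule, this held for Fos, at 0.27 on starch and -0.33 on sucrose (interaction -0.60). It also held for Arc (0.35 and -0.20, interaction -0.55), Egr2 (0.32 and -0.13, interaction -0.46), Creb1 (0.09 and -0.28, interaction -0.36) and, with the signs turned, Srf (-0.31 and 0.10, interaction 0.42). For Nts the values were 1.28 and -1.19, and its diet change likewise had opposite signs, 0.80 in wild-type and -1.67 in heterozygous mice (interaction -2.47). Of the genes chosen for profiles near those of Fos and Fosb, it held for Car3 (0.27 and -0.25, interaction -0.52) and 1700016P03Rik (0.16 and -0.12, interaction -0.28), both chosen for likeness to Fos. Some values passed the SD narrowly. Creb1 on starch had 0.087 against 0.068. On sucrose Egr2 had -0.135 and 1700016P03Rik -0.122, each against 0.118. In all, 18 of the 67 list genes measured had genotype changes of opposite signs beyond the SD, or 26.9%, against 8.79% of all 20655 genes, with no matching for brightness. Of the 18, 13 lay outside the rule and 16 were higher in heterozygous mice on starch and lower on sucrose (23.9% of the list genes, against 5.07% of all genes). Striatal markers had that direction too, with medians of 0.81 and -1.31 (interaction -2.02), and their part in these values was not tested. Those with the largest interactions among the 13, chosen after their values were seen, were Penk (0.48 and -0.77, interaction -1.25), Ctgf (0.26 and -0.67, interaction -0.93), Dusp1 (0.47 and -0.38, interaction -0.86), Klf2 (0.55 and -0.22, interaction -0.77) and Nr4a2 (0.31 and -0.27, interaction -0.59). Penk signals were 17.6, 24.3, 24.7 and 14.3 on wild-type starch, wild-type sucrose, heterozygous starch and heterozygous sucrose, where striatal sums were 11.7, 22.9, 19.1 and 11.1.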

How the results depend on the processing

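Of 42 member changes (7 genes in 6 comparisons), 38 kept their sign under all alternatives that gave a value, but 138 of 330 alternative values could not differ or came from the same ratio (the authors' matrix, or a setting that keeps the same probe). Of the other 192, 168 moved by less than the spot SD. Fosl1 has no value above the median signal. Normexp left 1 member past 2-fold for diet in heterozygous mice in place of 2, where the share of all genes was 0.707% in place of 1.77%. Median scaling gave 1 in place of 0 for both factors, where that share was 1.97% in place of 2%. A threshold of 1.5-fold gave 3, 4 and 5 members for diet in wild-type mice, diet in heterozygous mice and both factors, against 5.93%, 5.57% and 7.32% of all genes. The member median for diet in wild-type mice was -0.29 under normexp, a shift within the spot SD of Fosl1. The member median for diet in heterozygous mice was -0.68 above the median signal and -0.40 with the mean over probes, and for both factors it was -0.33 under normexp, -0.45 above the median signal and -0.38 with the mean over probes. In the last 2 of these settings different genes or probes enter. The normexp median for both factors was the value of Fosl1, whose processed signals were 16.2 to 26.3 intensity units. Normexp was run with an added offset of 50 units, whose part in the shift was not tested. The alternatives for the count of members lower in both genotypes were added after seeing the data. Dim probes (Fosl1 and the second probes of Fosb, Fosl2 and Junb) are limited by a spot SD of 0.43. No paired analysis was possible because the groups, with 1 array each, shared fewer than 2 replicate numbers.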
